A study of Mus musculus with 6 samples.

Results

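Genes of 2 families were chosen by name from the gene count table of colon RNA sequencing in 6 libraries: the carbonic anhydrase genes Car1, Car2, Car4, Car8, Car12 and Car13, and the aquaporin genes Aqp1, Aqp3, Aqp4 and Aqp8. They are 10 of the 54532 genes listed, and all 10 had enough reads to be among the 16861 genes tested. KO 1 to KO 3 are the libraries labelled as Itgbl1 -/-, and WT 1 to WT 3 are those labelled wild-type. Both groups were mice given DSS, dextran sulfate sodium of 36 to 50 kDa, at 3% in the drinking water for 7 days, so no library is from an untreated colon. DSS damages the epithelial lining, which leads to colitis. The distal colon was taken, and its poly-A RNA was read. The labels give neither strain, sex nor age, say nothing of how the Itgbl1 allele was made, and do not state whether each library is 1 animal, so a p-value speaks of variation among the libraries, which may be technical.

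Carbonic anhydrases interconvert carbon dioxide and bicarbonate. In the colon they supply bicarbonate and protons to the exchangers that take up sodium and chloride at the surface of absorptive colonocytes. Aquaporins are membrane pores for water, some of which also carry glycerol, and they let water follow the salt. Surface colonocytes are known for cytosolic and membrane-bound carbonic anhydrases, while the aquaporin of vessels and red cells is Aqp1.

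Total counts ran from 13326970 in KO 3 to 18321389 in WT 1. Itgbl1 itself had 12, 4 and 10 reads in KO 1, KO 2 and KO 3 and 19, 6 and 5 reads in WT 1, WT 2 and WT 3, so its counts do not separate the labels, and each direction given compares labels only. Libraries stood apart within the knockout label. The summed level of 12 epithelial markers was 1292, 8824 and 85.2 CPM in KO 1, KO 2 and KO 3, against 18060, 26010 and 19620 CPM in WT 1, WT 2 and WT 3, where CPM is the count scaled to library size. Of the 12, 11 were lower in every KO library, against 17.3% of all genes tested, and none was at 0 in any library. In KO 3 mitochondrially encoded genes took 12.8% of the counts, against 3.53 to 4.88% in the other 5 libraries. In bulk tissue, fewer epithelial cells and less RNA per epithelial cell cannot be told apart.

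The promoters of 3 members are shown because these genes take the main patterns in the data: Car4 and Aqp8, the most abundant carbonic anhydrase and aquaporin transcripts, were low in the libraries with little epithelial RNA, and Aqp1 was high there. Each run is the 250 bases before the RefSeq gene start (GRCm38.p6), 5′ to 3′ on the gene's strand, all on the plus strand: chr11:84957504-84957753 for Car4, chr7:123462044-123462293 for Aqp8 and chr6:55336049-55336298 for Aqp1. Capitals mark matches, on either strand, to 5 motifs: the core promoter motif TATAAA, the HNF4 repeat unit CAAAG, the CDX core TTTAT, the erythroid and intestinal factor motif AGATAA, or the Sp1 motif GGGCGG.
Car4: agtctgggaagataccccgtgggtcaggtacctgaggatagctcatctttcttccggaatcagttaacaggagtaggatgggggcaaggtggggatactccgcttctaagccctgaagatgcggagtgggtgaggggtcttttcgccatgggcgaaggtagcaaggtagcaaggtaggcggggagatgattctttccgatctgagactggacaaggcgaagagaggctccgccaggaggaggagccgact
Aqp8: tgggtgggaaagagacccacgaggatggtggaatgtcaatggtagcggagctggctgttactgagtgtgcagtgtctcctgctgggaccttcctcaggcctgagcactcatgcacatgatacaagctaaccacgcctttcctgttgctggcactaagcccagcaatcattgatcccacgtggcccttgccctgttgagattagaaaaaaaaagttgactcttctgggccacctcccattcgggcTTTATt
Aqp1: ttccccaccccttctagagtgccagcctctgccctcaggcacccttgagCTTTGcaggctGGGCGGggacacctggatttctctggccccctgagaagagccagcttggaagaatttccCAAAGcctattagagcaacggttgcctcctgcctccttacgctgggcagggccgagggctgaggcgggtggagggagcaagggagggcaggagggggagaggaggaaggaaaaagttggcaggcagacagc

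Of 32851 RefSeq promoters of this length, 12.4% held TATAAA, 48.6% CAAAG, 37.3% TTTAT, 9.99% AGATAA and 32.7% GGGCGG. The reverse complement of TTTAT lies within TATAAA, so those 2 motifs overlap. The Car4 window held none of the 5 motifs, and the Aqp8 window held 1 match, TTTAT, at 6 to 2 bases before the start. The Aqp1 window held CAAAG 2 times and GGGCGG 1 time. Windows were 56.4% G or C for Car4, 52.4% for Aqp8 and 62.0% for Aqp1, against a median of 52.4% over all promoters. The RefSeq start lies 32 bases before the start in the deposited table for Car4, 133 bases before it for Aqp1 and 3 bases after it for Aqp8. Windows were read for 5 of the members. Promoters on chromosome 18, where Aqp4 lies, were skipped, so no window was read for Aqp4.

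**Figure D1:**
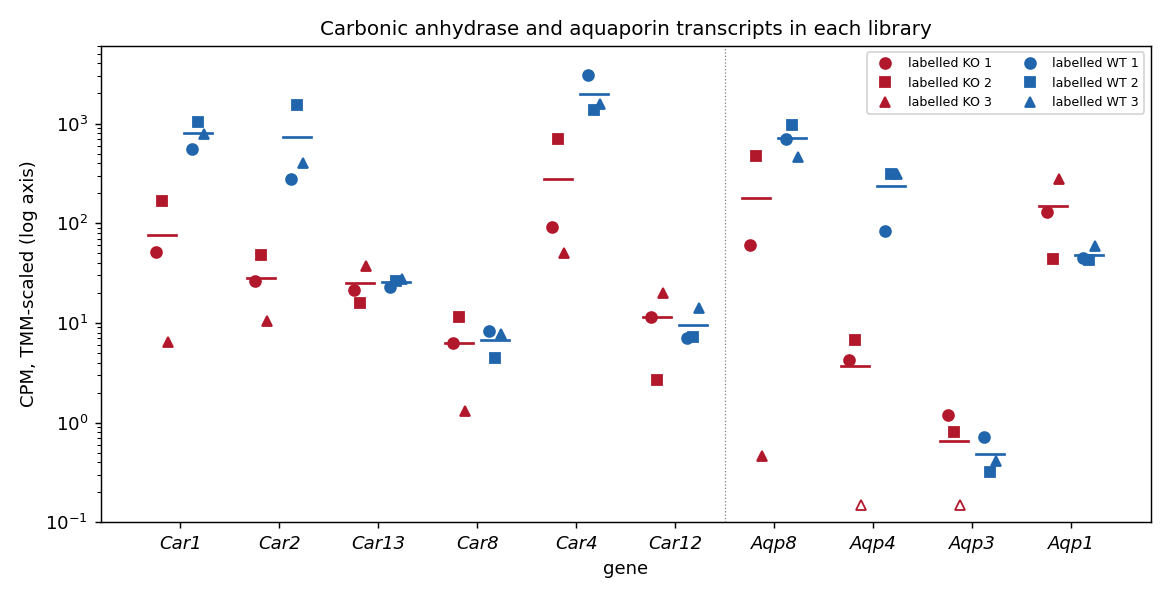
CPM of each gene (log axis) in the libraries labelled KO (red, left of each pair) and WT (blue, right), with circles, squares and triangles for replicates 1, 2 and 3 and bars for group means (n = 3 each). Open triangles at the lower edge mark 0 reads in KO 3 (Aqp4 and Aqp3). Car1, Car2, Car4 and Aqp4 lie lower in all 3 KO libraries than in any WT library.

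Under the knockout label the 3 most abundant carbonic anhydrase transcripts and Aqp4 had lower values throughout, Aqp8 was lower in KO 1 and KO 3 but not in KO 2, and Aqp1 was higher in KO 1 and KO 3. In all, 4 members (Car1, Car2, Car4 and Aqp4) were lower in every KO library than in every WT library, a pattern that 17.3% of all tested genes shared, and 0 members were higher in every KO library, against 15% of all genes. None of the 10 passed an adjusted p of 0.05 by edgeR's quasi-likelihood test, where 0 of 16861 genes (0%) passed. At an unadjusted p under 0.05 by the same test, 4 members were lower (Car1, Car2, Car4 and Aqp4), against 12.3% of all genes, and 1 was higher (Aqp1), against 11.8%. The median log2 ratio of KO over WT was -1.05 over the 10 members and 0.06 over all genes tested. DESeq2 called 4 members lower, Car1 (adjusted p = 0.00161), Car2 (4.71e-08), Car4 (0.0114) and Aqp4 (0.00598), beside 10.6% of its tested genes in either direction. Limma-voom called 0 genes, and with weights for library quality it called the same 4 members and 8.27% of all genes. The weights leaned on WT 3, at 5.56, against 1.42 for WT 1 and 0.838 for WT 2. They were 0.983, 0.427 and 0.36 for KO 1, KO 2 and KO 3.

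Calls by the quasi-likelihood test depended on KO 2. Without it the quasi-likelihood test called Car1, Car2 and Car4 lower and Aqp1 higher, beside 9.82% of all genes, while Aqp4 did not pass (adjusted p = 0.0523). Without any other single library the test called none of the members.

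Car4 encodes the carbonic anhydrase held on the outer face of the apical membrane by a lipid anchor. On average it was the most abundant carbonic anhydrase transcript per length under both labels, although Car1 was higher in WT 2. It was at 46.4, 353.6 and 25.3 CPM per kb in KO 1, KO 2 and KO 3, against 1561, 695.8 and 789.8 CPM per kb in WT 1, WT 2 and WT 3. KO 2 kept 34.8% of the wild-type mean, while KO 1 kept 4.57% and KO 3 kept 2.49%. As CPM, Car4 (ENSMUSG00000000805, chromosome 11, 84957786 to 84966044, GRCm38) was at 91.2, 695.2 and 49.8 in KO 1, KO 2 and KO 3, against 3068, 1368 and 1553 in WT 1, WT 2 and WT 3. The groups did not overlap. The log2 ratio was -2.84 ± 1.04 (SE; edgeR adjusted p = 0.164), with a 95% interval of the ratio of 0.0258 to 0.757. Without KO 2 the log2 ratio of Car4 was -4.83 (edgeR adjusted p = 0.0228).

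Car1 encodes a cytosolic isoform abundant in colonocytes and also in red cells. It was at 51.9, 167.7 and 6.43 CPM in KO 1, KO 2 and KO 3, against 555.5, 1045 and 790.8 CPM in WT 1, WT 2 and WT 3. All 3 KO libraries lay below WT 1, the lowest of the wild-type libraries, and KO 3 kept 0.807% of the wild-type mean. The log2 ratio of Car1 (ENSMUSG00000027556, chromosome 3, 14766216 to 14808368) was -3.40 ± 1.05 (SE; edgeR adjusted p = 0.131).

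Car2 encodes the high-activity cytosolic isoform, found in colonocytes, red cells and many other cells. It was at 26.1, 48.0 and 10.5 CPM in KO 1, KO 2 and KO 3, against 278.4, 1533 and 397.8 CPM in WT 1, WT 2 and WT 3. The groups did not overlap, and the spread was wide under the wild-type label, where WT 2 held several times the level of WT 1 and WT 3. The log2 ratio of Car2 (ENSMUSG00000027562, chromosome 3, 14886273 to 14900770) was -4.70 ± 0.91 (SE; edgeR adjusted p = 0.094), and -3.60 without WT 2. KO 2, which kept 34.8% of the wild-type mean of Car4 and 66.8% of that of Aqp8, kept 6.52% of that of Car2.

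Car13, a cytosolic isoform, showed no such difference. It was at 21.4, 16.0 and 37.5 CPM in KO 1, KO 2 and KO 3, against 22.9, 26.2 and 27.5 CPM in WT 1, WT 2 and WT 3. KO 3 was the highest library and KO 2 the lowest, with the wild-type libraries between KO 1 and KO 3. The ratio of Car13 (ENSMUSG00000027555, chromosome 3, 14641727 to 14663002) was 0.976, with a 95% interval of 0.552 to 1.72 (edgeR adjusted p = 0.961), and a difference inside that interval was not detectable here. Car13, Car1, Car3 and Car2 lie in this order within 259 kb of chromosome 3. Car1 overlaps a pseudogene with 0 reads, and no read was counted in any gene that overlaps a member.

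Car12, a membrane-spanning isoform with its active site outside the cell, and Car8, a related protein that has lost catalytic activity and is best known from Purkinje cells of the cerebellum, were both low. Car12 was at 11.5, 2.68 and 19.8 CPM in KO 1, KO 2 and KO 3, against 7.05, 7.20 and 14.0 CPM in WT 1, WT 2 and WT 3. Car8 was at 6.31, 11.4 and 1.32 CPM in KO 1, KO 2 and KO 3, against 8.24, 4.48 and 7.71 CPM in WT 1, WT 2 and WT 3. Both sets of libraries overlapped, and the KO libraries held the highest and the lowest value of each gene. In KO 2 Car8 was at its highest and Car12 at its lowest, and in KO 3 the order was the reverse. The log2 ratios were 0.27 ± 0.68 for Car12 (ENSMUSG00000032373, chromosome 9, 66713686 to 66766845) and -0.10 ± 0.71 for Car8 (ENSMUSG00000041261, chromosome 4, 8143362 to 8239041), with edgeR adjusted p = 0.834 and 0.946.

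Per length, the carbonic anhydrases fell into an abundant and a scarce set under the wild-type label. Means were 1015 ± 474.5 CPM per kb for Car4, 638.6 ± 196.0 for Car1 and 304.1 ± 286.0 for Car2 (SD, n = 3), then 11.1 ± 1.03 for Car13, 1.77 ± 0.53 for Car8 and 1.24 ± 0.52 for Car12. Neighbours in this order overlapped between libraries, except Car2 and Car13, and Car13 and Car8. Under the knockout label the means were 141.8 ± 183.8 CPM per kb for Car4, 60.4 ± 66.6 for Car1, 11.7 ± 7.8 for Car2 and 10.9 ± 4.88 for Car13 (SD, n = 3). In KO 3 the order itself differed, with Car13 at 16.3 CPM per kb above Car1 at 5.16 and Car2 at 4.35. Summed over the 6 genes, the level was 111.3, 518.1 and 54.1 CPM per kb in KO 1, KO 2 and KO 3, against 2134, 2179 and 1603 CPM per kb in WT 1, WT 2 and WT 3.

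Each gene was also taken as a share of that sum, which does not depend on scaling between libraries. Car13 held 8.36%, 1.34% and 30.2% in KO 1, KO 2 and KO 3. It held 0.468%, 0.523% and 0.747% in WT 1, WT 2 and WT 3, without overlap. Car8 did not overlap either, with at least 0.5716% in the KO libraries and at most 0.1247% in the WT libraries. The shares of Car1 and Car12 overlapped. A share rises when the sum falls, and the sum was lower in every KO library. The CPM of Car13 and of Car8 overlapped between the labels, and these shares do not show a rise of either gene. Car4 held 41.7%, 68.2% and 46.8% in KO 1, KO 2 and KO 3, against 73.1%, 31.9% and 49.2% in WT 1, WT 2 and WT 3, so its share overlapped. Car2 held 9.69%, 3.82% and 8.05% in KO 1, KO 2 and KO 3, against 5.39%, 29.1% and 10.2% in WT 1, WT 2 and WT 3, again with overlap.

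**Figure D2:**
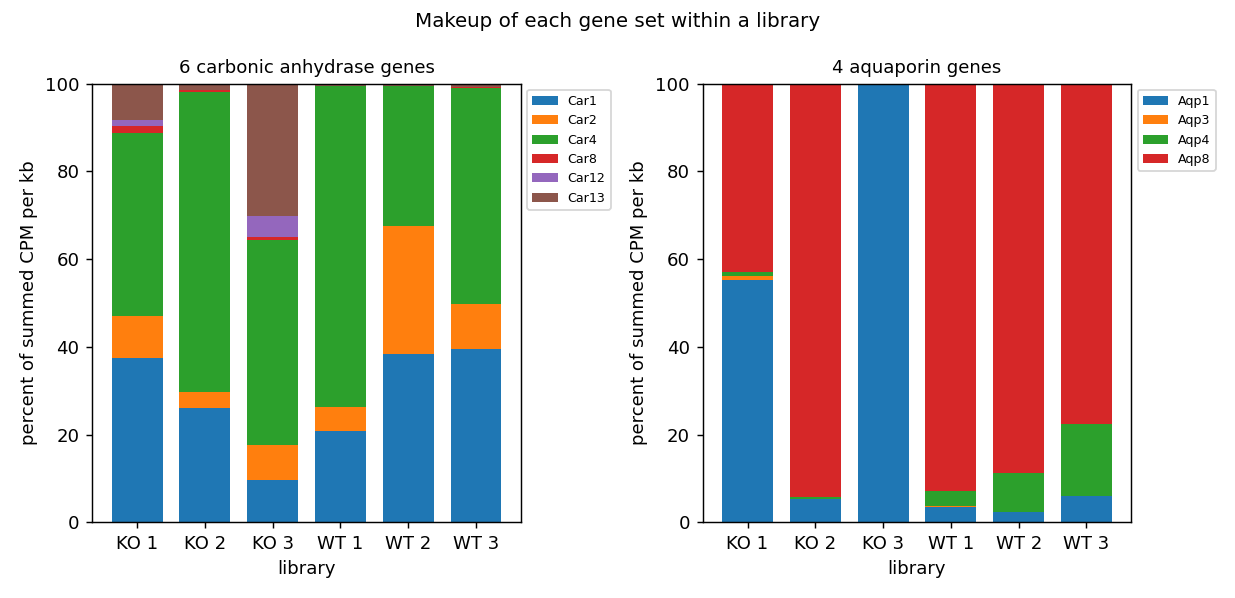
Share (percent) of each gene in the summed CPM per kb of the 6 carbonic anhydrase genes (left panel) and the 4 aquaporin genes (right panel), with 1 bar per library, KO 1 to KO 3 left of WT 1 to WT 3. Aqp1 makes up 55.3% and 99.7% of the aquaporin bar in KO 1 and KO 3, and Aqp8 makes up 94.2% in KO 2 and 77.6 to 92.9% in WT 1, WT 2 and WT 3.

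Aqp8, the water channel of surface colonocytes, was the most abundant aquaporin transcript per length under the wild-type label. It was at 59.9, 473.6 and 0.465 CPM in KO 1, KO 2 and KO 3, against 692.3, 970.2 and 463.5 CPM in WT 1, WT 2 and WT 3. KO 2 lay just above WT 3, KO 1 was well below the wild-type libraries, and KO 3 had only 6 reads. The log2 ratio of Aqp8 (ENSMUSG00000030762, chromosome 7, 123462291 to 123468004) was -1.99 ± 1.62 (SE; edgeR adjusted p = 0.481), with a 95% interval of the ratio of 0.0175 to 3.61. Without KO 2 the log2 ratio of Aqp8 was -4.55 (edgeR adjusted p = 0.131). Pancreatic acinar cells also make Aqp8, and 9 markers of them summed to 75.8, 1209 and 3.64 CPM in KO 1, KO 2 and KO 3, against 2.37, 0.884 and 0.941 CPM in WT 1, WT 2 and WT 3. Their part in the Aqp8 level of KO 2 was not tested.

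Aqp4, a water channel of basolateral membranes, had the largest negative log2 ratio of the members. It was at 4.29 and 6.73 CPM in KO 1 and KO 2 and had 0 reads in KO 3, against 83.0, 311.1 and 314.9 CPM in WT 1, WT 2 and WT 3. The groups did not overlap, and a count of 0 in KO 3 allows up to 3 reads, or 0.233 CPM, which is at least 356-fold lower than WT 1. The log2 ratio of Aqp4 (ENSMUSG00000024411, chromosome 18, 15389394 to 15403684) was -5.99 ± 1.40 (SE; edgeR adjusted p = 0.0999), with a 95% interval of the ratio of 0.00157 to 0.157. KO 2 kept 2.85% of the wild-type mean of Aqp4.

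Aqp3, a channel for water and glycerol known from basolateral membranes of colon and skin epithelium, was close to the limit of detection. It had 24, 14 and 0 reads in KO 1, KO 2 and KO 3, against 12, 5 and 7 reads in WT 1, WT 2 and WT 3. The libraries overlapped, and the log2 ratio of Aqp3 (ENSMUSG00000028435, chromosome 4, 41092722 to 41098183) was 0.49 ± 1.05 (SE; edgeR adjusted p = 0.798). Of 8 markers of squamous epithelium, 3 were tested and none had an unadjusted p under 0.05 by edgeR, and 7 of the 8 were at 0 in some library, Krt4 in every one. Krt14 was at 0.542, 0.856 and 0 CPM in KO 1, KO 2 and KO 3, against 1.42, 2.65 and 1.24 CPM in WT 1, WT 2 and WT 3. The 8 summed to 10.1, 133.4 and 1.86 CPM in KO 1, KO 2 and KO 3, against 76.3, 20.9 and 20.3 CPM in WT 1, WT 2 and WT 3. Most of that sum was Sprr1a, which was at 129.9 CPM in KO 2 and 73.0 CPM in WT 1. Their part in the Aqp3 level was not tested.

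Aqp1, the water channel of capillary endothelium and red cells, was the 1 member higher at an unadjusted p under 0.05. It was at 128.0, 44.0 and 274.4 CPM in KO 1, KO 2 and KO 3, against 44.4, 42.4 and 58.5 CPM in WT 1, WT 2 and WT 3. KO 1 and KO 3 lay above every wild-type library and KO 2 lay among them. The log2 ratio of Aqp1 (ENSMUSG00000004655, chromosome 6, 55336432 to 55348555) was 1.62 ± 0.60 (SE; edgeR adjusted p = 0.168), with a 95% interval of the ratio of 1.15 to 8.21, and it was 0.79 without KO 3. The 10 endothelial markers summed to 669.0, 451.7 and 1482 CPM in KO 1, KO 2 and KO 3, against 446.4, 233.9 and 376.3 CPM in WT 1, WT 2 and WT 3. Log2 ratios of all 10 were above 0 (median 1.21), as were those of 8954 of the 16861 genes tested. Of the 10, 3 were higher in every KO library, against 15% of all genes. The 7 erythroid markers summed to 162.8, 586.7 and 2644 CPM in KO 1, KO 2 and KO 3, against 161.3, 51.1 and 88.3 CPM in WT 1, WT 2 and WT 3. Of the 7, 5 were tested, all above 0 with a median log2 ratio of 3.46, and 3 of these 5 were higher in every KO library. The highest erythroid level was in KO 3, where Aqp1 was highest and Car1 and Car2 lowest. In KO 2 the erythroid level was also above every wild-type library, while Aqp1 lay among them. The part of vessels and red cells in the Aqp1, Car1 and Car2 levels was not tested. Epb42 had 0 reads in KO 1, KO 3 and WT 2.

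Set against the mean log2 CPM of the 10 endothelial markers in the same library, Aqp1 was at 1.40, 0.19 and 1.36 in KO 1, KO 2 and KO 3, against 0.25, 1.08 and 0.94 in WT 1, WT 2 and WT 3. The libraries overlapped, and the difference of 0.23 on the log2 scale was within their spread (exact permutation p = 0.6, two-sided, with 0.1 the smallest that 3 against 3 allows).

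Per length, the wild-type libraries had the order Aqp8, Aqp4, Aqp1 and Aqp3, at 448.2 ± 160.5, 46.5 ± 26.1, 18.4 ± 3.33 and 0.262 ± 0.113 CPM per kb (SD, n = 3), and of these neighbours Aqp4 and Aqp1 overlapped. In KO 1 Aqp1 was at 48.7 CPM per kb and Aqp8 at 37.9, and in KO 3 Aqp1 was at 104.5 and Aqp8 at 0.294. In KO 2 Aqp8 at 299.6 CPM per kb remained far above Aqp1 at 16.7. Summed over the 4 genes, the level was 88.1, 318.1 and 104.8 CPM per kb in KO 1, KO 2 and KO 3, against 471.5, 691.2 and 377.6 CPM per kb in WT 1, WT 2 and WT 3.

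Since epithelial RNA differed so much between libraries, each member was also set against the mean log2 CPM of the 12 epithelial markers of its own library. That mean lay at -3.86, -1.28 and -8.13 in KO 1, KO 2 and KO 3 relative to the wild-type mean. On this measure Aqp4 was the 1 member lower in every KO library, at -3.93, -5.88 and -4.86 in KO 1, KO 2 and KO 3, against -3.33, -1.93 and -1.57 in WT 1, WT 2 and WT 3. Only 26 of 16861 genes (0.154%) were lower in every KO library on it. In KO 3 a gene with 0 reads stands at -4.86. Only genes above this in every wild-type library could be lower there, which holds the share down. Car8, Car12, Car13 and Aqp3 lay below -4.86 in every wild-type library, so they could not be lower. The share therefore does not measure how rare the Aqp4 pattern is. The Aqp4 difference was -2.61 (exact permutation p = 0.1, two-sided, the smallest possible), and the value in KO 3 rests on 0 reads, so that the prior count of 2 sets it. Between KO 1 and WT 1 the gap was small, at -3.93 against -3.33.

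Car1, Car2, Car4 and Aqp8 overlapped between the labels once set against the epithelial markers. Their differences were 0.10 for Car1, -0.12 for Car2, 0.75 for Car4 and -0.31 for Aqp8 on the log2 scale, with exact two-sided permutation p = 0.9, 0.9, 0.6 and 1.0. Each of these 4 lay farthest from its wild-type mean in KO 3, at 1.26, 2.44, 2.91 and -2.05 in the same order, where the markers themselves were nearly gone. In KO 2, Car2 lay at -2.25 and Car1 at -0.92 relative to their wild-type means, while Car4 lay at -0.15 and Aqp8 at 0.76. Car8, Car13, Aqp1 and Aqp3 were higher in every KO library on this measure, as were 84.9% of all tested genes, and Car12 overlapped because KO 2 lay among the wild-type libraries.

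**Figure D3:**
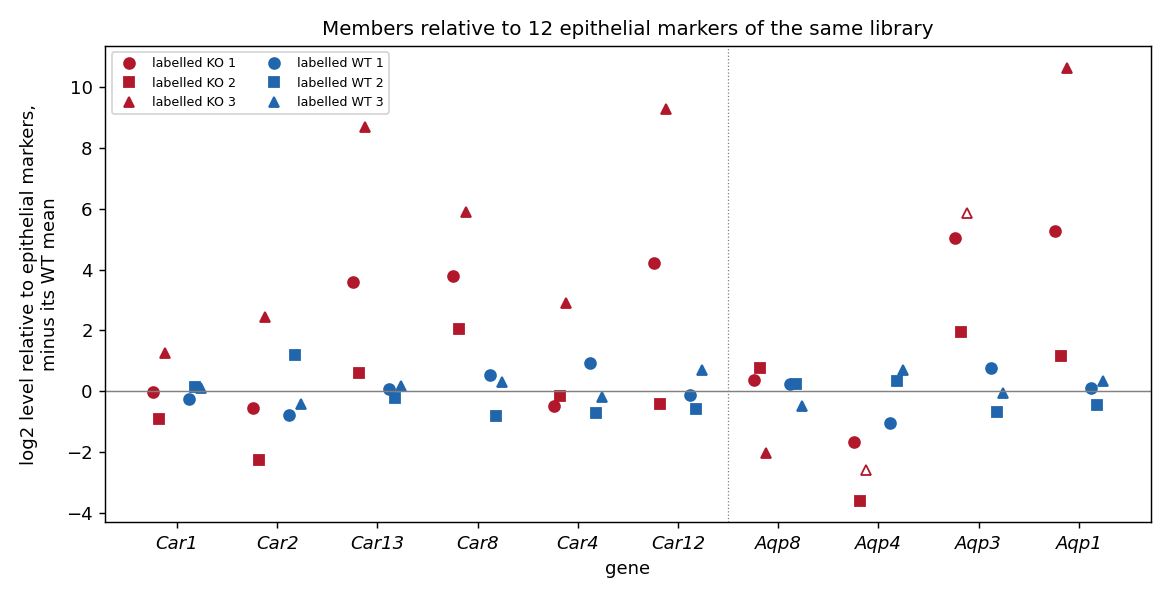
Log2 CPM of each gene minus the mean log2 CPM of 12 epithelial markers in the same library, with the wild-type mean of that gene set to 0. KO libraries are red and left of each pair, WT libraries blue, and open triangles mark 0 reads. Aqp4 lies at -1.66, -3.60 and -2.58 in KO 1, KO 2 and KO 3, below the wild-type libraries. For Car1, Car2, Car4 and Aqp8 the KO and WT libraries overlap.

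Ratios between members within a library do not depend on scaling or on the marker list. Aqp8 over Car4, per length, was 0.816 and 0.847 in KO 1 and KO 2, within the range of 0.281 to 0.882 in WT 1, WT 2 and WT 3, and was 0.0116 in KO 3. Car1 over Aqp8 was 1.1, 0.449 and 17.5 in KO 1, KO 2 and KO 3, against 1.02, 1.36 and 2.16 in WT 1, WT 2 and WT 3. Car2 over Aqp8 was 0.285, 0.0661 and 14.8 in KO 1, KO 2 and KO 3, against 0.262, 1.03 and 0.560 in WT 1, WT 2 and WT 3. In both of these ratios KO 2 was the lowest library and KO 3 the highest.

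The genes whose values over the 6 libraries were most like those of Car4, among 14406 protein-coding genes with a mean of at least 1 CPM, were Xcl1, Adtrp and Clic5. Their Euclidean distances on centred log2 CPM were 0.63, 0.66 and 1.06. For Aqp8 the nearest were Gpa33, Ttc22 and Vil1, at 1.04, 1.16 and 1.16. Vil1 is 1 of the 12 epithelial markers, and like Aqp8 it was near 0 in KO 3, with 4 reads.

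Other genes of both families were mostly scarce. Of 10 further carbonic anhydrase genes 6 were tested, and none passed the adjusted threshold or an unadjusted p under 0.05 by edgeR. Car9, a membrane isoform known as a target of the hypoxia-inducible factor, was at 7.10, 27.0 and 0.388 CPM in KO 1, KO 2 and KO 3, against 61.2, 67.0 and 60.3 CPM in WT 1, WT 2 and WT 3, and its groups did not overlap. Its log2 ratio was -2.44 ± 1.1 (SE; edgeR adjusted p = 0.229). Car3, Car14 and Car11 had log2 ratios of -1.34, -0.85 and 0.27. Of 8 further aquaporin genes 2 were tested. Aqp11, an aquaporin of internal membranes, was at 2.07, 0.513 and 0.930 CPM in KO 1, KO 2 and KO 3, against 3.08, 20.5 and 6.71 CPM in WT 1, WT 2 and WT 3 (log2 ratio -3.09 ± 0.85, SE; edgeR adjusted p = 0.113). Aqp9, a water and glycerol channel, was at 1.23, 5.53 and 3.88 CPM in KO 1, KO 2 and KO 3, against 0.415, 0.0631 and 1.23 CPM in WT 1, WT 2 and WT 3 (log2 ratio 2.61 ± 0.98, SE; edgeR adjusted p = 0.169).

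The exchangers, channels and pumps that work with these enzymes had lower values in most cases. Of 25 such genes, 22 were below 0 on the log2 ratio, whose median was -1.41, against 0.06 over all genes. None passed the adjusted threshold, 12 were lower by edgeR at an unadjusted p under 0.05 (12.3% over all genes), and 16 were lower in every KO library, against 17.3% of all genes. The 4 with the smallest p are named. Slc4a4, the basolateral sodium bicarbonate cotransporter, was at 9.31, 4.68 and 7.75 CPM in KO 1, KO 2 and KO 3, against 44.6, 192.6 and 66.1 CPM in WT 1, WT 2 and WT 3. Best2, a bicarbonate channel of colonic goblet cells, was at 0.542, 1.03 and 0.310 CPM in KO 1, KO 2 and KO 3, against 8.71, 82.7 and 20.5 CPM in WT 1, WT 2 and WT 3. Slc4a7, another sodium bicarbonate cotransporter, had a log2 ratio of -1.41 ± 0.30 (SE; edgeR adjusted p = 0.0953). Slc26a3, which exchanges chloride for bicarbonate at the apical membrane, was at 12.8, 60.8 and 4.73 CPM in KO 1, KO 2 and KO 3, against 559.4, 1197 and 386.1 CPM in WT 1, WT 2 and WT 3. As with Car2 and Aqp4, Slc4a4 and Best2 were low in KO 2 as well as in the other KO libraries, and WT 2 held the highest level of Slc4a4, Best2 and Slc26a3, as it did of Car2.

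Relative to the epithelial markers, 11 of these 25 genes were higher in every KO library, against 84.9% of all genes, and 1 was lower, against 0.154% of all genes. The 1 was Slc5a8, a sodium-coupled carrier of short-chain fatty acids that had 0 reads in KO 3 and is named after its values were seen. The share of 0.154% is held down because 0 reads in KO 3 stand at -4.86. Slc26a3 and Slc4a4 overlapped between the labels on this measure, with differences of -0.93 and 0.87 on the log2 scale. Best2 had a difference of -0.74 and also overlapped, but this was set in advance. With 8.71 CPM in WT 1, it lay too low there for KO 3 to fall below it even at 0 reads.

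**Figure D4:**
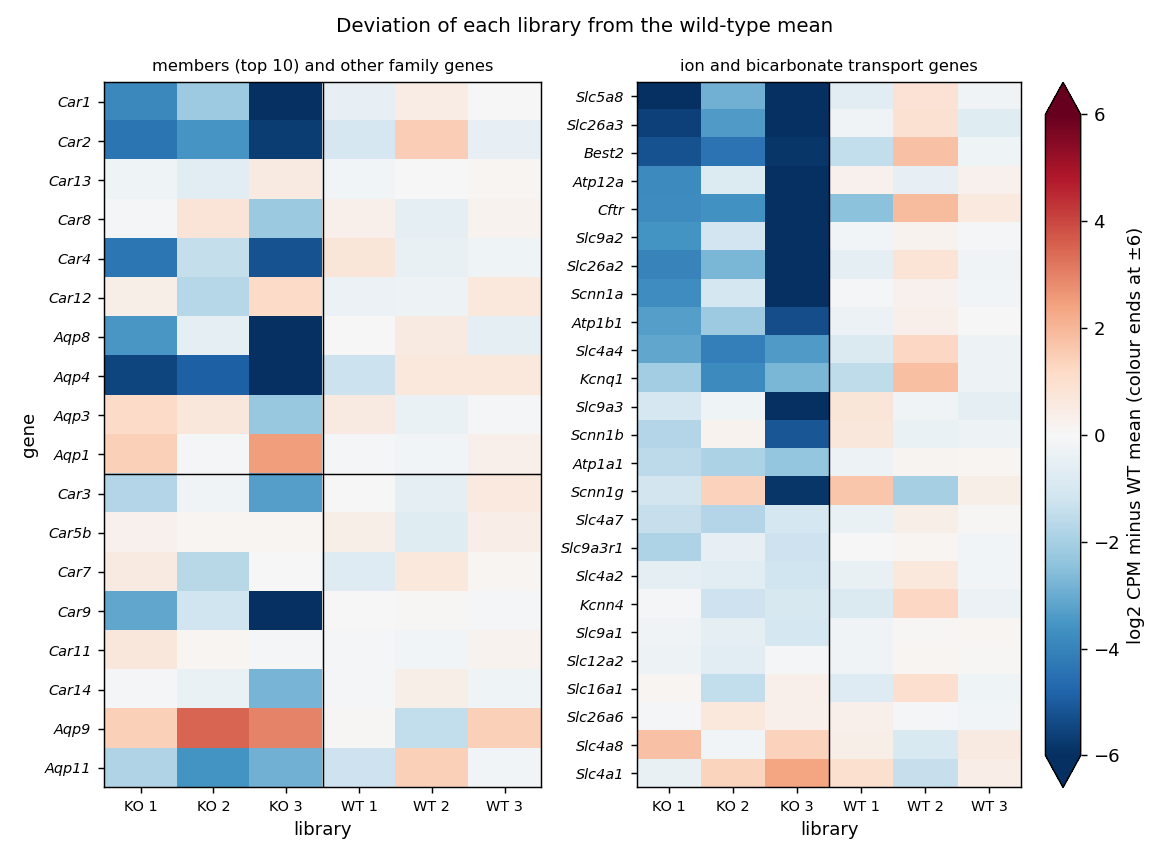
Log2 CPM of each library minus the wild-type mean (blue lower, red higher, colours end at ±6) for the 10 members and the other tested carbonic anhydrase and aquaporin genes (left panel) and for 25 ion and bicarbonate transport genes (right panel), with KO 1 to KO 3 left of WT 1 to WT 3. In KO 3 Aqp8 and Aqp4 lie at -10.18 and -10.72, the value of Aqp4 being set by the prior count, and Aqp1 at 2.51, while KO 2 has Aqp8 at -0.52 and Aqp4 at -4.88.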

How the data were processed

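Poly-A RNA of distal colon was sequenced in 6 libraries, 3 labelled knockout and 3 labelled wild-type. The authors deposited raw counts of reads for each gene in each library. Per the submitters' processing notes the builds were GRCm38 and mm10, and the tools, whose roles are unstated, included DESeq2, featureCounts 1.5.0-p3, HISAT2 2.0.5 and StringTie 1.3.3b. Not given in the sources used here are the strand setting, the annotation release and the handling of multi-mapping reads, which could move reads between similar genes. Gene lengths are those deposited by the authors in bases, and CPM per kb divides CPM by them.

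Counts were fitted in R 4.3.3 with edgeR 4.0.16: filterByExpr (minimum count 10, minimum total 15), TMM scaling, robust quasi-likelihood F test without covariates, Benjamini-Hochberg over all genes tested, threshold 0.05. The fit was tested on simulated data, where the pass mark was recovery of large changes at a fixed spread between libraries. Its power at the spread of these libraries is not given here. CPM and log2 CPM are TMM-scaled, and log2 CPM uses a prior count of 2. Single values were compared by two-sided exact permutation tests. A count of 0 allows up to 3 reads, which covers counting error only. Alternatives were RLE and upper-quartile scaling, other filters, DESeq2 1.42.0, limma-voom 3.58.1 with and without quality weights, a replicate block and each library left out.

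The members and gene lists were chosen with earlier results of these data known. All 10 members are named, from each other list at most 4 genes with the smallest p, and 3 nearest genes for Car4 and Aqp8. Outside this rule, Slc5a8, Aqp12, Krt4, Epb42, Sprr1a and Acta1 are named after their values were seen. Of 8 erythroid markers 7 were found. Promoter sequences are from RefSeq, GRCm38.p6.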

Additional observations from a re-analysis of the deposited data

How the results depend on the processing

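The count of genes past the adjusted threshold by the edgeR quasi-likelihood test was 0. It was 192 with no filter on low counts, 2034 with DESeq2 and 1395 with limma-voom and quality weights, and 0 to 1714 with 1 library left out, the 1714 without KO 2. The count of members was 0, against 4 with DESeq2, 4 with quality weights and 0 to 4 with 1 library left out. With the replicate number as a block, 3 genes and 0 members passed. The labels state no pairing of same-numbered libraries. Their deviations from the group means correlated at -0.201, 0.087 and -0.075, while KO 1 and WT 3 reached 0.34. With 3 libraries in each group, these values cannot show whether a pairing exists.

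Car1, Car2, Car4, Aqp1, Aqp4 and Aqp8 kept the sign of their log2 ratio under every alternative that gave a value, with ranges of -4.77 to -2.86, -5.33 to -3.60, -4.83 to -2.33, 0.79 to 2.04, -7.27 to -5.43 and -4.56 to -1.40. Ratios near 0 changed sign. Car8 (-0.83 to 0.37 with 1 library left out) was at 0.03 with upper-quartile scaling, 0.37 without KO 3 and 0.04 without WT 1. Car13 was at 0.12 with upper-quartile scaling, 0.06 without KO 1, 0.19 without KO 2 and 0.01 without WT 3. Car12 (-0.45 to 0.72 with 1 left out) was at -0.12 with limma-voom, -0.37 with quality weights, -0.03 with the block and -0.45 without KO 3. Aqp3 (-0.18 to 1.01 with 1 left out) was at -0.31 with limma-voom and -0.18 without KO 1. Upper-quartile scaling put the median of all genes at 0.206, against 0.061 with TMM. The strict filter of 10 reads in every library left out Aqp3, Aqp4 and Aqp8, which gave no value there.

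Relative to epithelial markers, Car1 turned to -0.48 without KO 3 and -0.03 without WT 1, Car4 to -0.32 and Aqp8 to 0.56 without KO 3. Car2 turned to 0.10 without 3 keratins, 0.09 without KO 1, 0.95 without KO 2 and 0.47 without WT 2. Aqp1 relative to endothelial markers turned to -0.03 without WT 1. With 1 library left out these ranged from -0.48 to 0.61 for Car1, -1.39 to 0.95 for Car2, -0.32 to 1.38 for Car4, -0.84 to 0.56 for Aqp8 and -0.03 to 0.62 for Aqp1. The Aqp4 difference stayed between -3.25 and -2.12 over its 8 alternatives. The cause of these sign changes was not tested. In KO 3 a count of 0 allows up to 0.233 CPM.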

Other observations

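Aqp12, an aquaporin gene known from pancreatic acinar cells and named here after its values were seen, had 0, 16 and 0 reads in KO 1, KO 2 and KO 3 and 2, 3 and 0 reads in WT 1, WT 2 and WT 3, too few to be tested. KO 2 is also the library with 1209 CPM of acinar markers. Smooth muscle markers summed to 3356, 5586 and 1639 CPM in KO 1, KO 2 and KO 3, against 3770, 4793 and 3343 CPM in WT 1, WT 2 and WT 3, and fibroblast markers to 4688, 2405 and 4268 CPM, against 1267, 905.7 and 1678 CPM. Enteric glia markers summed to 223.2, 158.5 and 688.2 CPM in KO 1, KO 2 and KO 3, against 70.4, 37.0 and 75.2 CPM in WT 1, WT 2 and WT 3, and leukocyte markers to 900.5, 973.8 and 1119 CPM, against 1208, 399.4 and 760.1 CPM. Enteric neuron markers summed to 474.1, 170.1 and 402.9 CPM in KO 1, KO 2 and KO 3, against 144.2, 101.1 and 177.4 CPM in WT 1, WT 2 and WT 3, and skeletal muscle markers to 4.73, 97.0 and 9.61 CPM, against 7.59, 18.6 and 7.24 CPM. Of the 97.0 CPM in KO 2, 88.8 CPM were Acta1. The part of these cell types in the levels of the members was not tested.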
